A study of Rattus norvegicus with 4 samples.

Results

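The 9 genes Mbp, Mog, Mag, Mobp, Cnp, Mal, Opalin, Ermn and Tspan2, taken by symbol out of a matrix of 32623 rat genes, encode proteins of the myelin sheath. All 9 symbols were found. The matrix holds UMI counts (unique molecular identifiers, each standing for 1 captured transcript) from droplet sequencing of dissociated hippocampus of Wild type male adult Sprague Dawley rats aged 10 to 12 months. The titled samples were MCAO (unilateral occlusion of the middle cerebral artery, a stroke model), DEPR and MD, both labelled with chronic stress, and NC, the negative control. The design text describes 20 rats in 2 groups of 10, all with MCAO and with 1 group then stressed, and 5 hippocampi per group, which differs from the 4 titles; what MD stands for is not given. Barcodes carried 4 suffixes, here sets 1 to 4, that no label ties to a titled sample, so each set is given by itself and MCAO, DEPR, MD and NC were not compared.

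Oligodendrocytes wrap axons in layers of their own membrane. Compact myelin is held together on its cytoplasmic side by basic proteins, while adhesion molecules sit on the inner and outer faces of the sheath and cytoskeletal and raft proteins serve the growth of the membrane. Oligodendrocyte precursors, marked by the receptor Pdgfra and the proteoglycan Cspg4, turn on most of these genes as they mature.

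Oligodendrocytes were cells with at least 8 UMIs over Mag, Mog, Mobp and Ermn and no other type's gate. There were 7678 of them among 27937 cells kept, with 1226, 2327, 1820 and 2305 in sets 1 to 4 and a median of 5632 UMIs. Those 4 members therefore chose the cells, and their levels in oligodendrocytes are a description. Mbp, Cnp, Mal, Opalin and Tspan2 took no part in the gate. A second gate of 10 oligodendrocyte genes with no member among them (Cldn11, Ugt8, Gjb1 and 7 others) took in 98.6% of the cells that passed the first, and the first took in 99.5% of those that passed the second. Precursors, gated on 7 markers (Pdgfra, Cspg4, C1ql1, Tnr, Matn4, Neu4 and Gpr17), numbered 30, with 4, 6, 7 and 13 in sets 1 to 4. The gate does not part early precursors from cells that have begun to mature, and the stage of these 30 was not tested. Those markers, which chose the cells, summed to 8.17 CPM (UMIs of a gene scaled to a class total of 1000000) in oligodendrocytes and 4280 CPM in precursors, a gap that the gate itself sets. Pdgfra stood at 0.0632 CPM in oligodendrocytes and 1350 CPM in precursors. Precursors also carried astrocyte markers at 380.3 CPM, nearly all of it from 1 of 8 genes at 335.6 CPM, and their ependymal markers were at 0.

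Depth was 36242408 to 54295520 UMIs per set. Sets shared 83 barcodes in all, between 7 and 25 per pair. Another 10 types held at least 20 cells each, from 120 neutrophils to 4715 microglia, and 5 gated types (fibroblasts, ependymal cells, choroid plexus, astrocytes and neurons) held fewer and are not compared. Cells that passed more than 1 gate (1713) were set apart. Because each titled sample had 1 library there were no replicates and no test was made, and intervals are exact 95% intervals for counting error only.

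Upstream windows of 300 bases (250 before and 50 after the transcript start, RefSeq, build GRCr8) were at hand for 7 of the 9 members. The letters CTGGCAC, or GTGCCAG on the other strand, are the core of the motif described for Myrf, a transcription factor that oligodendrocytes need to myelinate. They occurred in the windows of 4 of these 7 members, against 5.07% of 27457 genes with a window. The 4 windows are shown because they share these letters, given in capitals, at unlike distances from the start. In Cnp (chr10:86011254-86011553, plus strand) they lie at -124 to -118 relative to the start, and in Mag (chr1:95290995-95291294, minus strand) at -94 to -88. In Mal (chr3:135341374-135341673, minus strand) the reverse letters lie at -126 to -120, and in Opalin (chr1:249858141-249858440, minus strand) at -17 to -11.
Cnp: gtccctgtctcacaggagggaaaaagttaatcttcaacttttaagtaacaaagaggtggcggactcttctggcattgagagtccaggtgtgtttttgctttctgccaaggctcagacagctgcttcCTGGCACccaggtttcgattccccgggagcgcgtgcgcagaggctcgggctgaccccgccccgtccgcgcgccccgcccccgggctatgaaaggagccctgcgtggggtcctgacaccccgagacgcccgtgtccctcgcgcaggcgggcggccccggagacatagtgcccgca
Mag: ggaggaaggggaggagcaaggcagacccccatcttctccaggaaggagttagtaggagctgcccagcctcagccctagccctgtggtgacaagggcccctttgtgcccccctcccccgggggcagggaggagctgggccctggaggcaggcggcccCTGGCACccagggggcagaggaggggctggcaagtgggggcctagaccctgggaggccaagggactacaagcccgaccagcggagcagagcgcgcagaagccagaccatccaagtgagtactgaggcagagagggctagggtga
Mal: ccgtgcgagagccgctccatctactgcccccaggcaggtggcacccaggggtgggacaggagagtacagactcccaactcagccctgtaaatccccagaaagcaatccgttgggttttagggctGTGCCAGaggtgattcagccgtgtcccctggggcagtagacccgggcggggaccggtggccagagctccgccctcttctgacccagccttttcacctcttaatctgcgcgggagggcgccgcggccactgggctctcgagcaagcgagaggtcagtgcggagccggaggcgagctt
Opalin: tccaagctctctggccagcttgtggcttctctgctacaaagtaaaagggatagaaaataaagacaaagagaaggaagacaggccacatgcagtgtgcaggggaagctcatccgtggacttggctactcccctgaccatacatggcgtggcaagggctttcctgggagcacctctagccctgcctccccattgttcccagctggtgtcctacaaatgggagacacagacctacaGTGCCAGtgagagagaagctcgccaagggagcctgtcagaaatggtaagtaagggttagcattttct
The variant CTGGTAC, or GTACCAG, occurred in none of the 7 (0 of 7, against 2.34% of genes). The letters ACAAAG, or CTTTGT, the core bound by Sox factors, occurred in 5 of 7 (Cnp, Mag, Mbp, Mobp and Opalin), against 19.7% of genes, with 8 copies in Mobp. Mbp had 2 windows, of which only the second (chr18:78209995-78210294, plus strand) held these letters. No match of this Sox core overlaps one of the Myrf core in these windows. These are matches of letters and show no binding.

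In oligodendrocytes the 9 members together made up 24224, 24406, 27705 and 27386 CPM in sets 1 to 4, or 26189 CPM over all sets. Precursors held 2752, 1928, 5388 and 2326 CPM in the same sets. The sum in precursors was therefore lower in every set. The members split by how large that gap was, and the 9 genes are taken below by the place of their protein in the sheath.

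**Figure D1:**
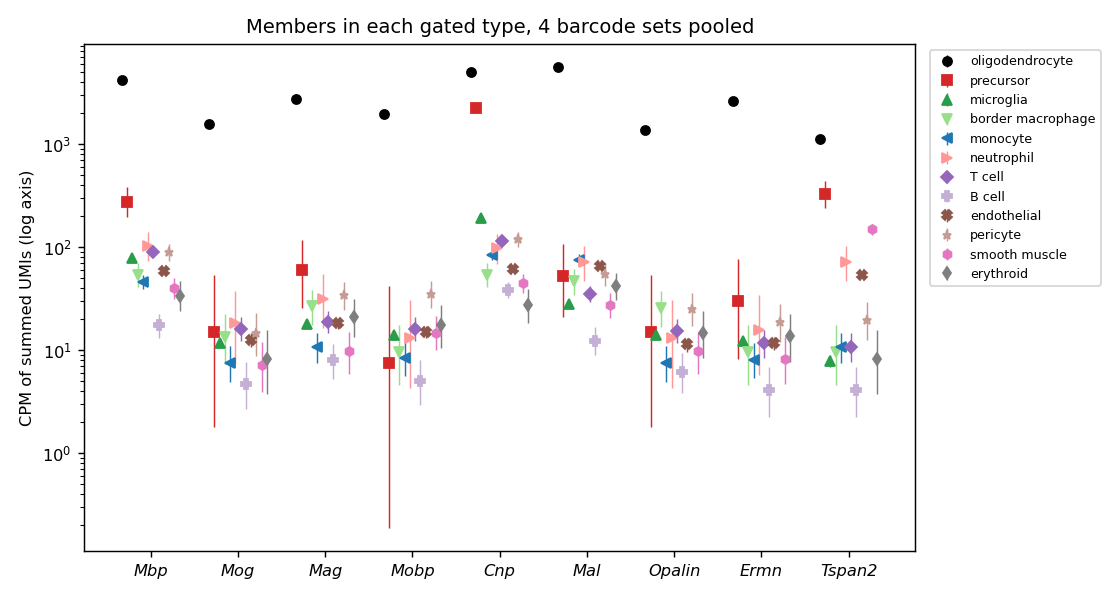
Level of each member (CPM of summed UMIs, log axis, 4 sets pooled) in oligodendrocytes, precursors and 10 other gated types; bars are exact 95% counting intervals. Oligodendrocytes lie highest for all 9 genes, precursors approach them only for Cnp (5027 CPM in oligodendrocytes and 2260 CPM in precursors), and smooth muscle stands out for Tspan2.

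The basic proteins of compact myelin came first. Mbp, the myelin basic protein that holds the cytoplasmic faces of the membrane together and whose mRNA is carried out along the processes, had 3973, 4082, 4452 and 4241 CPM in oligodendrocytes of sets 1 to 4. In precursors it had 0, 0, 689.1 and 268.4 CPM, from 37 UMIs in 6 of 30 cells, 14 of them in 1 cell. The pooled ratio was 15.3 (11.1 to 21.7). It moved with the set, being 28.1 without set 3, and with the cells counted as precursors, being 3.94 when barcodes were kept in each gate they passed (47 precursors). Precursors of set 3 also had the highest level of the 10 oligodendrocyte genes of the second gate, at 1128 CPM, with 442, 501 and 805 CPM in precursors of sets 1, 2 and 4; the part of this in the Mbp value was not tested. Mobp, a second basic protein of the cytoplasmic side, had 1952 CPM in oligodendrocytes and 7.46 CPM in precursors, where 1 UMI was found in 30 cells, and its ratio was 262 (47.0 to 10340).

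The surface and adhesion proteins had higher pooled ratios than Mbp. Mag and Mog were part of the oligodendrocyte gate, which no precursor passed, so the gate can set this order in part. With the second gate the ratios were 26.8 (17.2 to 44.6) for Mbp and 166 (46.0 to 1373) for Mag. They were 95.8 (26.5 to 791) for Mog and 82.7 (22.9 to 683) for Opalin, whose intervals overlap that of Mbp. The values below are by the first gate. Mag, a sialic acid-binding protein of the membrane next to the axon, had 2748 CPM in oligodendrocytes and 59.7 CPM in precursors, a ratio of 46.1 (23.4 to 107). Of its 8 UMIs in precursors 6 were in 1 cell, without which the ratio was 174 (48.0 to 1433). Mog, on the outermost face of the sheath, had 1584 CPM in oligodendrocytes and 14.9 CPM in precursors, from 2 UMIs, and its ratio was 106 (29.4 to 877). Opalin, a glycoprotein of the oligodendrocyte membrane, had 1366 CPM in oligodendrocytes and 14.9 CPM in precursors, also from 2 UMIs, and a ratio of 91.6 (25.4 to 756).

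Mal, a raft proteolipid that helps to sort membrane to its destination, had 5757, 5942, 5384 and 5345 CPM in oligodendrocytes of sets 1 to 4. In precursors it had 98.3, 38.6, 31.3 and 53.7 CPM, which came from 7 precursors with 1 UMI each. All 4 sets showed the same direction, and the pooled ratio was 107 (51.9 to 266). Ermn, an actin-binding protein made late in maturation, had 2613 CPM in oligodendrocytes and 29.8 CPM in precursors, a ratio of 87.6 (34.2 to 322).

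Cnp and Tspan2 behaved otherwise. Cnp, a cyclic nucleotide phosphodiesterase that keeps cytoplasmic channels in myelin open, had 4127, 4173, 5714 and 5610 CPM in oligodendrocytes of sets 1 to 4. Precursors held 2408, 1619, 3822 and 1610 CPM. The ratio was 1.71, 2.58, 1.495 and 3.48 by set and 2.22 pooled (1.988 to 2.498). Oligodendrocytes were thus higher in each set, by less than 2-fold in sets 1 and 3. A Cnp UMI was found in 99.96% of oligodendrocytes and in 27 of 30 precursors, against 61.5% of microglia. After thinning every cell to 1000 UMIs the shares were 98.5% of oligodendrocytes, 76.7% of precursors and 17.4% of microglia, with median depths of 5632, 4542 and 6231 UMIs before thinning. One precursor of set 3 held 70 of the 303 Cnp UMIs; without it the ratio was 2.65 in set 3 and 2.73 pooled (2.40 to 3.11). Tspan2, a tetraspanin that organises membrane proteins, had 1104, 1050, 1102 and 1166 CPM in oligodendrocytes. Precursors held 196.6, 269.9, 532.5 and 286.3 CPM of it, in 16 of 30 cells. Its ratio was 5.62, 3.89, 2.07 and 4.07 by set and 3.38 pooled (2.52 to 4.65), or 4.38 without the same set 3 cell, which held 12 of its 44 UMIs.

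A gene was called where the ratio reached 2 in each of the 4 sets, with at least 20 UMIs of the gene per set in both classes together and a class at 0 put at the floor of 3 UMIs. By this rule 8 of 9 members were called, all but Cnp, against a background of 1.29% of 8947 genes measured (4.85% were called lower). In precursors that floor was 147, 116, 94.0 and 53.7 CPM in sets 1 to 4. A gene at 0 UMIs there needed at least 2-fold that level in oligodendrocytes to be called. The background thus holds genes too low to be called, whereas the members were well above these levels in oligodendrocytes. Its share was 2.02% with at least 100 UMIs. The members and the background are therefore not on an equal footing. Of the 5 members outside the gate 4 were called. With the second gate the same 8 were called, against 1.3% of genes, and the Cnp ratio was 3.14 (2.73 to 3.63). The members' median log2 ratio over sets was 4.37, or 3.62 for the 5 outside the gate, against -1.71 over all genes measured. The median of all genes depended on the UMI minimum, at -3.03 with at least 1 UMI and -0.88 with at least 100. Pooled over sets and with UMIs in both classes, the medians were 6.45 for the members and -0.78 for all genes. Thinned to 1000 UMIs a cell, 5 of 9 were called (Mbp, Mag, Mobp, Mal and Ermn), against 0.598% of genes.

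**Figure D2:**
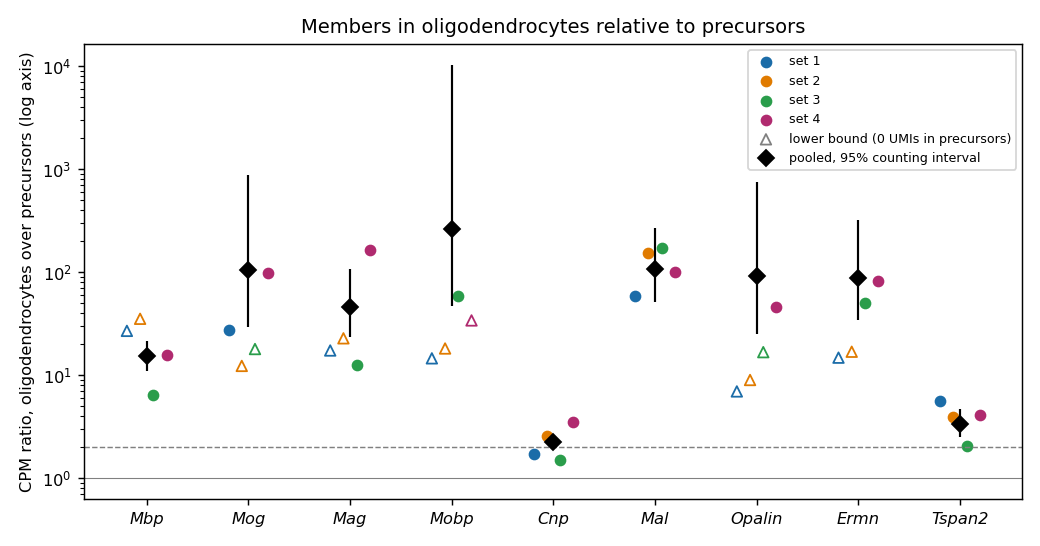
Ratio of CPM in oligodendrocytes over precursors (log axis) by set (dots), with open triangles for lower bounds where precursors held 0 UMIs, and pooled with its 95% counting interval (diamonds); the dashed line is 2-fold. Cnp lies lowest, with sets 1 and 3 under the line at 1.71 and 1.495, and Tspan2 in set 3 lies just above it at 2.07.

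Types that do not make myelin gave a gauge of the background. The level of a member in the other 10 types, given as a percentage of its level in oligodendrocytes, had medians between 0.446% (Ermn) and 1.45% (Cnp). In precursors Mog, Mobp, Mal and Opalin lay within the range of CPM seen in those 10 types, for example 52.2 CPM of Mal in precursors with 12.4 to 75.7 CPM in the others. Mag at 59.7 CPM and Ermn at 29.8 CPM lay above the highest of the others, pericytes, at 34.3 and 18.8 CPM, but the intervals overlap. For Mag they were 25.8 to 118 CPM in precursors and 24.7 to 46.3 CPM in pericytes. For Ermn they were 8.13 to 76.4 CPM, from 4 UMIs, and 11.9 to 28.2 CPM. Neither is therefore told apart from the others, and Mag without its 1 cell lay within them at 15.8 CPM. Pooled over sets, Mbp, Cnp and Tspan2 lay above all 10, at 275.9, 2260 and 328.1 CPM with highest others of 102.6, 190.3 and 149.0 CPM. For Mbp this rested on sets 3 and 4, as precursors of sets 1 and 2 held 0 UMIs of it. Of its 37 UMIs 14 were in 1 cell, and with the second gate it was at 157 CPM, from 19 UMIs. The share of precursors with an Mbp UMI, 20% (6 of 30), was nevertheless no higher than in neutrophils (25%), so no order is read for Mbp from shares of cells. Of all member UMIs Cnp made up 19.2% in oligodendrocytes and 74.3% in precursors, and Tspan2 made up 4.23% in oligodendrocytes and 10.8% in precursors.

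The genes that chose the cells had a soft edge. Among cells with no other gate, the 107 with 8 to 11 gate UMIs, just inside, had 4120 CPM of Mbp, 4714 of Cnp and 4839 of Mal. The 121 cells with 4 to 7, just outside, had 1776, 1823 and 1760 CPM of the same genes and a median of 855 UMIs, against 1288 UMIs inside. Cells with no gate UMI at all (6585) had 58.1 CPM of Mbp, and the 6993 cells with 24 or more had 4221.

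**Figure D3:**
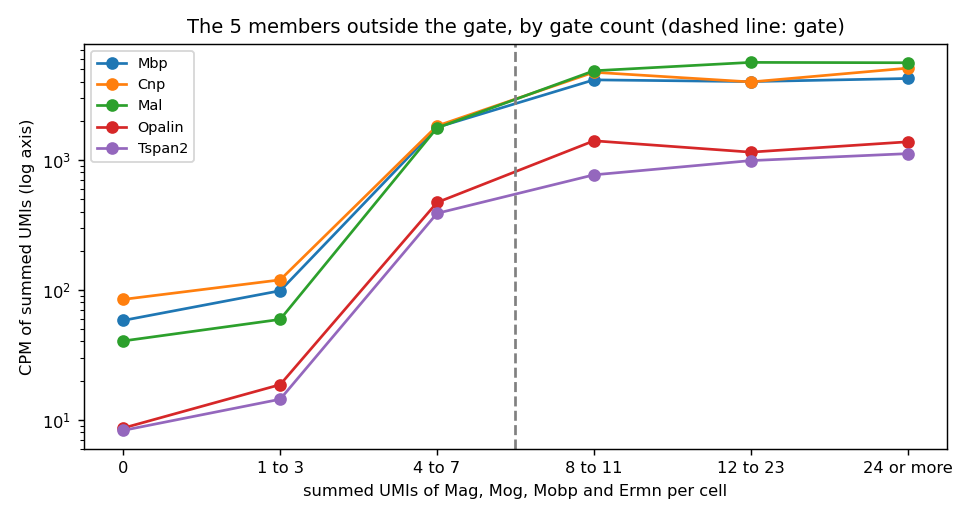
Level of the 5 members that took no part in the gate (CPM, log axis) in cells binned by their summed UMIs of Mag, Mog, Mobp and Ermn; the dashed line is the gate at 8. Mbp stands at 4120 CPM just inside the line, 1776 CPM just outside it and 58.1 CPM at a gate count of 0.

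Against the highest of the 10 other types, the 2-fold rule held in every set for 9 of 9 members, where 5.87% of 10217 genes were so called (9 of 9 and 5.94% with the second gate). Mag, Mog, Mobp and Ermn set the first gate, which cells of the other types failed, so their calls by it follow from the gate. All 5 members outside the gate were called. The members' median log2 ratio over the highest other type was 5.46, or 5.23 for the 5 outside the gate, against -0.93 over all genes. The lowest ratio in any set was 6.46 for Tspan2, where the type below was smooth muscle in all 4 sets. For Mal, Cnp and Mbp the lowest ratios were 15.5, 17.8 and 17.8, and for the other 5 members they were 23.6 or more. The type below changed from set to set for most of these; neutrophils, of which set 3 had 12, were among the most frequent.

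Among the other types the members did not stand at a common fraction of their oligodendrocyte level. Tspan2 in smooth muscle had 139, 112, 133 and 180 CPM in sets 1 to 4, or 13.4% of its level in oligodendrocytes, where the other 8 members ranged from 0.313% (Ermn) to 0.948% (Mbp). Tspan2 is also known from the muscle of vessel walls. It was found in 96.8% of oligodendrocytes and 57.4% of smooth muscle cells (63.0% and 12.9% after thinning), against 4.84% of microglia (0.976% after thinning). Median depths were 5632, 7728 and 6231 UMIs. In endothelial cells Tspan2 had 54.2, 53.4, 47.6 and 58.4 CPM in sets 1 to 4, or 4.86% of the oligodendrocyte level. Smooth muscle markers in endothelial cells summed to 28.00 CPM, where smooth muscle itself had 30379 CPM. In neutrophils Tspan2 was at 6.41% pooled (27 UMIs), higher than in endothelial cells, but the counting intervals overlap. By set it was 3.32, 6.04, 3.24 and 11.6%, from 3, 12, 1 and 11 UMIs. Neutrophils of set 4 also held smooth muscle markers at 135.4 CPM, against 12.2 to 35.7 CPM in the other 3 sets. The part of these markers in the set 4 value was not tested.

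Cnp was the member with most signal in microglia, at 73.3, 82.4, 221 and 228 CPM in sets 1 to 4, or 1.78, 1.97, 3.87 and 4.06% of its level in oligodendrocytes of the same set. The median member in microglia was at 0.385, 0.576, 0.809 and 0.724%. Sets 3 and 4 were thus both above sets 1 and 2. T cells held Cnp at 2.54, 2.31, 2.05 and 2.27% in sets 1 to 4, more than microglia in sets 1 and 2. Cnp made up 19.2% of member UMIs in oligodendrocytes and 50.8% in microglia.

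Mal had its highest pooled share in monocytes, at 1.36%. By set it was 34.6, 52.7, 276 and 346 CPM, and the 2 high values rest on 26 and 35 monocytes in sets 3 and 4, with 259 and 243 in sets 1 and 2. The monocyte gate also held microglial markers at 318.7 CPM, against 1405 CPM in microglia. Mal was 1.12 to 1.34% of the oligodendrocyte level in endothelial cells of sets 2 to 4 and 0.992% in set 1. In ependymal cells, counted here with those that also passed the astrocyte gate (95 cells, a class added after the data were seen), Mal had 151, 167, 152 and 285 CPM, or 2.98% of the oligodendrocyte level, and Tspan2 4.04%, while the other 7 members were between 0.254% and 0.925%. Mal is also known as a raft protein of epithelial cells.

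Mbp differed between sets outside oligodendrocytes. As a share of member UMIs it was 16.4, 16.7, 16.1 and 15.5% in oligodendrocytes of sets 1 to 4. In endothelial cells it was 10.5, 10.8, 31.8 and 15.1%, in T cells 19.1, 15.5, 41.4 and 21.6%, and in smooth muscle 8.70, 7.35, 27.7 and 5.0%. Set 3 was highest in 7 of the 9 other types that had at least 10 cells in every set. In CPM relative to oligodendrocytes of the same set, endothelial Mbp stood at 0.550, 0.679, 2.85 and 1.30%. The 10 genes of the second gate, none a member, summed in endothelial cells to 1.39, 1.66, 1.51 and 1.66% of their oligodendrocyte level.

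**Figure D4:**
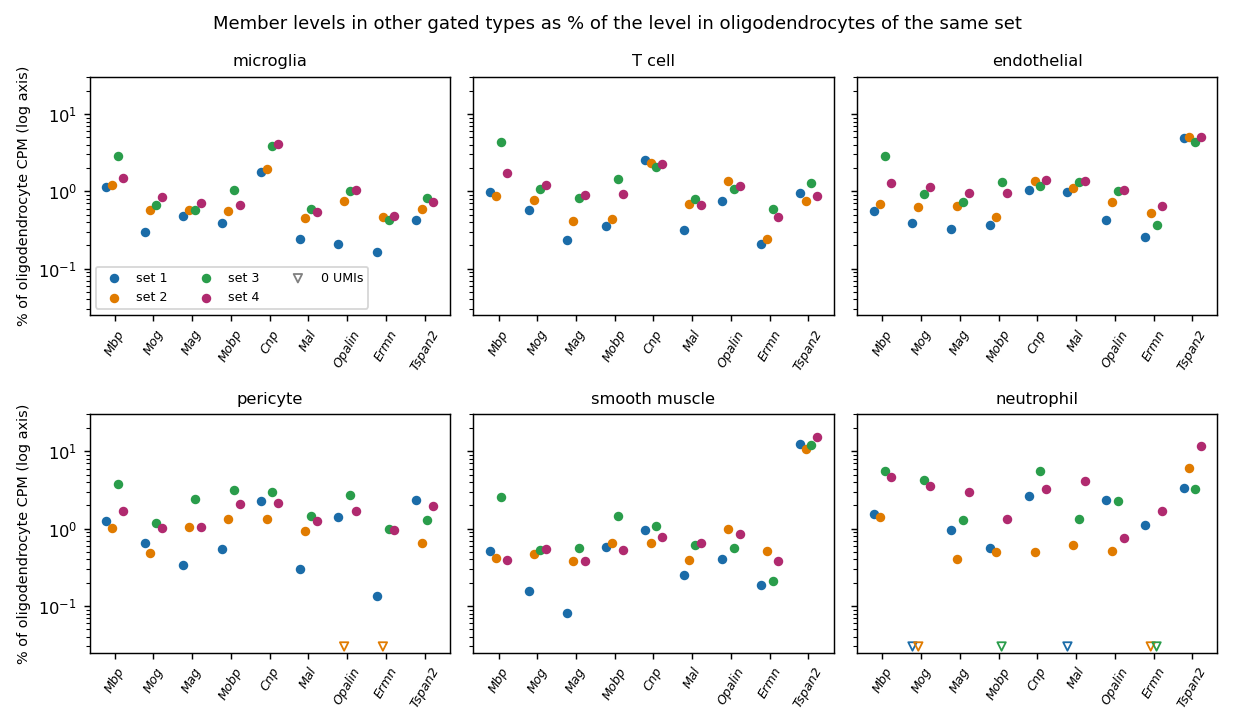
Level of each member in 6 other gated types as a percentage of its level in oligodendrocytes of the same set (log axis; dots are sets, open triangles 0 UMIs). Tspan2 lies high in smooth muscle (10.7 to 15.5%), neutrophils (3.24 to 11.6%) and endothelial cells (4.32 to 5.08%). Cnp is at 1.78 to 4.06% in microglia, 2.05 to 2.54% in T cells and 0.507 to 5.62% in neutrophils. Mbp of set 3 lies above that of the other sets in all 6 types.

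Over the 10 other types the lowest, median and highest percentages were 0.414, 1.33 and 2.44% for Mbp, 0.298, 0.770 and 1.16% for Mog, 0.290, 0.674 and 1.25% for Mag and 0.257, 0.736 and 1.80% for Mobp. They were 0.547, 1.45 and 3.79% for Cnp, 0.222, 0.796 and 1.36% for Mal, 0.454, 0.996 and 1.88% for Opalin, 0.158, 0.446 and 0.718% for Ermn and 0.373, 0.970 and 13.4% for Tspan2. B cells, the deepest class at a median of 22227 UMIs, were lowest for 8 of the 9 members. The sum of the 10 genes of the second gate stood at 0.413% (B cells) to 3.12% (microglia) of its level in oligodendrocytes; in microglia Aspa alone was at 51.8% and the median gene at 0.837%. Members of the sheath summed to 167, 217, 467 and 407 CPM in microglia of sets 1 to 4, 206, 230, 472 and 345 CPM in T cells and 208, 258, 399 and 365 CPM in endothelial cells. In each of these types sets 3 and 4 were above sets 1 and 2, and oligodendrocytes made up 19.3, 29.2, 35.1 and 27.4% of the cells kept in sets 1 to 4.

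Between sets, no member differed by as much as 2-fold within oligodendrocytes. In 0 of 9 was the highest set 2-fold over the lowest, where 9.13% of 9465 genes with at least 50 UMIs in those sets were that far apart; the members' median ratio was 1.18 and that of all genes 1.30, so the count is near that background. Ermn had the widest range, with 2183, 1955, 3180 and 2907 CPM in sets 1 to 4 and a ratio of 1.63 (1.60 to 1.65). Opalin followed with 1026, 1039, 1573 and 1633 CPM and a ratio of 1.59 (1.55 to 1.63). Cnp was at 1.38 and Mog at 1.30, and these 4 were higher in sets 3 and 4 than in sets 1 and 2, as were Mag (1.13) and Mbp (1.12) by less. Mobp was lower there, with 2150, 2102, 1836 and 1826 CPM and a ratio of 1.18, and so was Mal, at 1.11. Tspan2 had its highest value in set 4 and its lowest in set 2, a ratio of 1.11. With the second gate 0 of 9 were 2-fold apart, where 9.04% of genes were, with ratios of 1.63 for Ermn, 1.59 for Opalin and 1.38 for Cnp.

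**Figure D5:**
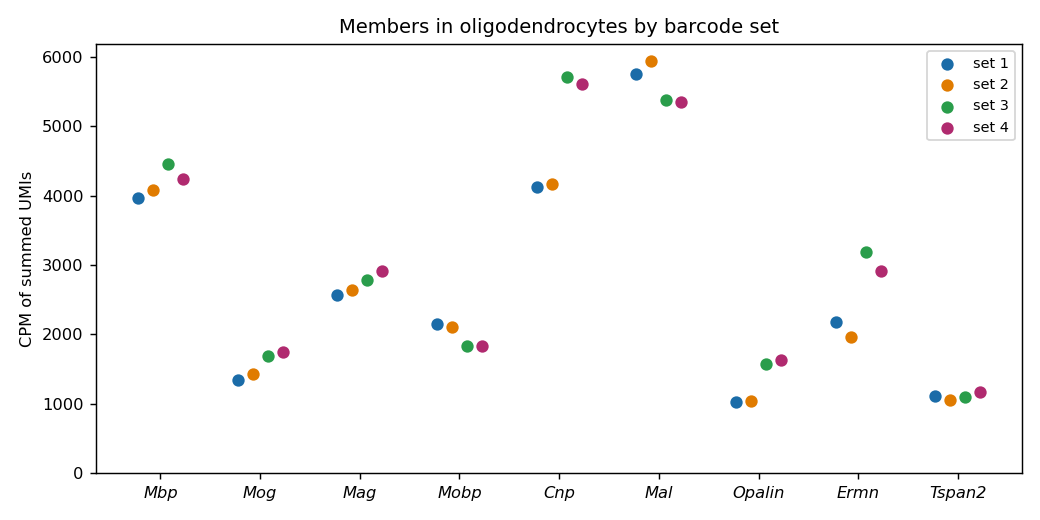
Level of each member (CPM of summed UMIs) in oligodendrocytes of sets 1 to 4; each dot is 1 set. Ermn, Opalin, Cnp and Mog lie higher in sets 3 and 4 (Opalin 1573 and 1633 CPM, with 1026 and 1039 CPM in sets 1 and 2), and Mobp and Mal lie lower there.

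Among oligodendrocytes thinned to 1000 UMIs, the 7641 cells deep enough (37 were not) held a mean of 26.0 UMIs of the 9 members, with 18 at the 10th and 34 at the 90th percentile. By the second gate, which uses no member, 7587 cells gave the same mean and percentiles and a variance of 1.57 times the mean. By the first gate the variance was 1.56 times the mean for the sum and between 1.10 (Mog and Mag) and 1.76 (Mal) times the mean for single members, where random sampling of equal cells gives a ratio of 1. This ratio grows with a gene's mean, so it ranks no member as the most variable; Mal had 2 UMIs at the 10th and 10 at the 90th percentile. Pearson's r between pairs of members over cells at this depth ran from -0.033 to 0.121 over 36 pairs, with a median of 0.019. Single members had means of only 1.08 (Tspan2) to 5.71 (Mal) UMIs, and most of their variance was of the size that random sampling gives. Such counts hold r near 0 even for genes that vary together. These values therefore do not show that the members vary independently.

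Klk6, a secreted protease, marks part of mature oligodendrocytes. Cells with at least 2 Klk6 UMIs numbered 3380 and those with none 2682, at median depths of 6884 and 4650 UMIs. They were 32.3, 32.8, 52.3 and 55.1% of the oligodendrocytes of sets 1 to 4. No member (0 of 9) was 2-fold apart in every set, where 0.339% of 8543 genes were higher and 0.0702% lower, so this count too is near the background. Mal was at 5019 CPM in Klk6-positive and 6303 CPM in Klk6-negative cells, a ratio of 0.796 (0.789 to 0.803), with 0.866, 0.818, 0.848 and 0.736 by set. Tspan2 was at 1026 CPM in Klk6-positive and 1234 CPM in Klk6-negative cells, a ratio of 0.831. Both were lower in Klk6-positive cells of every set, as was Opalin, at 0.903, 0.861, 0.830 and 0.793. Mobp was higher in every set, at 1.17, 1.197, 1.19 and 1.26, as was Ermn, at 1.18, 1.13, 1.06 and 1.10. Mog and Mag were also above 1 in every set, at no more than 1.09.

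Of other genes of the sheath a smaller share was called than of the members (8 of 9), but the footing is not equal. Mag, Mog, Mobp and Ermn set the gate, although the same 8 were called with the second gate. The members stood at 1109 (Tspan2) to 5578 CPM (Mal) in oligodendrocytes. The lists below hold lower genes, which the floor can keep from being called. Cd82, at 149 CPM in oligodendrocytes with 1 UMI in precursors, was not called at a pooled ratio of 19.9. No order of uniformity is therefore read. Of 20 other myelin and glial membrane proteins 11 were called higher in oligodendrocytes than in precursors and 1 lower, with a median log2 ratio over sets of 2.15. Hapln2, a link protein of the nodes of Ranvier, had 885 CPM in oligodendrocytes and 7.46 CPM in precursors, and the lysophosphatidic acid receptor Lpar1 had 814 CPM in oligodendrocytes and 7.46 CPM in precursors, both from 1 UMI in precursors. Cd9, a tetraspanin like Tspan2, was called lower, at 2341 CPM in oligodendrocytes and 8919 CPM in precursors, a ratio of 0.262 (0.248 to 0.278). Nfasc, an adhesion molecule of the paranode, was at 0.744 (0.527 to 1.09) and was not called.

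Of 16 cytoskeletal and cytosolic proteins 8 were called higher and 1 lower (1.29% and 4.85% of all genes), with a median of 1.28. Sept4, a septin filament protein, had 2653 CPM in oligodendrocytes and 29.8 CPM in precursors, a ratio of 88.9. Carbonic anhydrase Car2 had a ratio of 80.0. Bcas1, which marks early myelinating cells, was called lower at 0.269 (0.232 to 0.315), and the deacetylase Sirt2 was at 0.899 (0.739 to 1.11). Of 12 enzymes of myelin lipids only Ugt8, which makes galactosylceramide, was called higher, at 2.58, and Gal3st1, which sulfates it, was called lower, at 0.334; the median log2 ratio was 0.41. Outside the calls the high end of that list was Elovl1 at 7.08 (3.03 to 21.8) and Enpp2 at 5.66 (2.75 to 14.1), from 5 and 7 UMIs in precursors. Both were thus not called in every set although their pooled intervals lay above 2. The low end was Enpp6 at 0.216 (0.117 to 0.452) and Fads1 at 0.153 (0.0262 to 6.14, from 1 UMI in precursors). Ugt8 and Gal3st1 were named after their values were seen.

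Of 12 transcription factors of the lineage 1 was called higher and 3 lower (1.29% and 4.85% of all genes), with a median of -1.31. Nkx6-2 had 792 CPM in oligodendrocytes and 29.8 CPM in precursors, a ratio of 26.6. Myrf, whose core letters are in the 4 windows above, had 224 CPM in oligodendrocytes and 59.7 CPM in precursors, a ratio of 3.75 (1.90 to 8.69), and was not called. Olig2 was at 318 CPM in oligodendrocytes and 1469 CPM in precursors, a ratio of 0.217, and Tcf7l2 at 19.95 CPM in oligodendrocytes and 164.1 CPM in precursors, a ratio of 0.122; both were called lower. Against the highest other gated type 17 of 20 membrane proteins and 10 of 16 cytoskeletal proteins were called higher. So were 6 of 12 lipid enzymes and 9 of 12 transcription factors, where 5.87% of 10217 genes were called.

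The genes whose pattern was most like the members' were found over 43 units of type and set with at least 10 cells, by Pearson's r of log2(CPM + 10) with the members' mean standardised profile among 11084 genes. The units share libraries and differ in depth, and the measure is a description. Among the 6 genes outside the members that came first were Gpr37, an orphan receptor (0.979), LOC361016 (0.978), Qdpr, a pteridine reductase (0.976), NEWGENE_1310680 (0.973) and Cldn11, the tight junction protein of myelin (0.969). The members themselves, each part of the mean it was set against, ran from 0.839 for Tspan2 and 0.932 for Cnp to 0.981 for Mag.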

How the data were processed

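The deposited matrix holds UMI counts, whole numbers that the authors did not normalise, written by Cell Ranger 5.0.0 per the file headers. The submitters' processing notes name Cell Ranger, STAR and Rnor_6.0, and the labels' protocols an enzymatic dissociation, red cell lysis and a 10x 3' kit of version 3. No source used here gives the gene annotation or says whether counting used strand; in the RefSeq table (GRCr8) Mbp, Mog, Mag, Mal and Tspan2 overlap other genes, so their counts could share reads.

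Cells had at least 500 UMIs, 300 genes and at most 20% mitochondrial UMIs. Scrublet in scanpy 1.11.5 (expected share 6%, per set) removed 942 of 28879 cells. A gate needed a summed count of 5 and 2 distinct markers, or 8 for oligodendrocytes and 100 for erythroid cells; 8361 cells passed none. Of 111 marker symbols 8 matched no gene. All columns of the matrix were used. UMIs were summed per class and set and divided by the class total (CPM). Intervals are exact Poisson or conditional binomial intervals at 95%, computed in Python 3.11.15 with numpy 2.4.6, scipy 1.17.1 and pandas 2.3.3. TMM factors came from edgeR 4.0.16 on R 4.3.3, as an alternative. The calls were run on simulated counts with known changes well above 2-fold, in genes of high level only. That run does not measure how calls near 2-fold or of low genes behave.

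The planned design made no test, because no set is tied to a titled sample. Members, lists and gates were chosen with earlier results of these data known. Named were all 9 members, the 2 highest and 2 lowest ratios of each further list (among genes with UMIs in both classes) and the 6 genes most alike, of which 1 is not reported here. Alternatives varied the gates, cell filter, doublets, depth, scaling, UMI minimum and sets; 3 more were added after the data were seen.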

Additional observations from a re-analysis of the deposited data

How the results depend on the processing

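The counts of members called, out of 9 of which Mag, Mog, Mobp and Ermn set the gate, were 8 over precursors, 9 over the highest other type, 0 between sets and 0 by Klk6. In every alternative run the last 3 counts were the same. The share of all genes called over the highest other type ran from 3.50 to 7.30% in these runs. Over precursors the count was 5 when cells were thinned to 1000 UMIs, where precursors held fewer UMIs and bounds replaced ratios. The share of all genes called was then 0.598%, with 1.29% in the main run. The count was 7 with a precursor gate of at least 10, with a stricter cell filter and with TMM scaling. That filter asked for at least 1000 UMIs, 500 genes and at most 10% mitochondrial UMIs, and left 20 precursors. Tspan2 was no longer called in these settings, although its pooled ratio was 3.13, 3.01 and 3.85. The shares of all genes called were 1.10, 1.12 and 1.16% there. The count was 9 when barcodes were kept in each gate they passed, where Cnp was called at a pooled ratio of 2.60. The Mbp ratio there was 3.94, and the share of all genes called was 2.20%. Leaving out each set in turn gave 8 to 8 over precursors, 9 to 9 over the highest other type and 0 to 0 for both other counts. The share of all genes ran from 1.36 to 1.73% over precursors and from 6.18 to 6.46% over the highest other type. The pooled Mbp ratio was 13.1, 12.5, 28.1 and 14.9 without sets 1, 2, 3 and 4, and 26.8 with the second gate; the cause was not tested. The pooled Cnp ratio was 2.32, 2.21, 2.70 and 1.75 in the same order. Among single members 147 ratios over precursors moved within their counting interval and 20 beyond it, and between sets 104 and 40; none changed direction. No paired analysis was possible because no set is tied to a titled sample and each titled sample has 1 library. The 30 precursors limit every ratio against them, and members with 1 or 2 UMIs there have only wide intervals.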
